A study of Drosophila melanogaster with 8 samples.

Results

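The genes described here encode the subunits of the fly proteasome and their close paralogs, measured in Drosophila melanogaster heads. Members were taken by symbol, from the Prosalpha, Prosbeta, Rpn and Rpt families, wherever a probe set of the array was annotated to that gene alone. This gave 40 genes of the 11982 genes named in that way, each read by 1 probe set. They comprise 12 subunits of the core particle (Prosalpha2 to Prosalpha7 and Prosbeta2 to Prosbeta7), 14 subunits of the regulatory particle (10 Rpn and 4 Rpt genes) and 14 paralogs whose symbols carry a T, an R or a further letter. The RefSeq gene table lists 48 such genes; Prosalpha1 and Prosalpha1R share a probe set and were left out, and the other 6 (Prosbeta1, Rpt1, Rpt6, Rpt6R, Rpn9 and Rpn10) were not analysed here.

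The proteasome degrades proteins that have been tagged with chains of ubiquitin. Its core particle is a barrel in which an outer ring of alpha subunits forms the gate at each end and inner rings of beta subunits hold the proteolytic sites. The regulatory particle caps the barrel: the Rpt subunits are ATPases that unfold the substrate and open the gate, and the Rpn subunits are scaffolds, ubiquitin receptors and a deubiquitinase. In yeast, flies and mammals the subunit genes are known to be transcribed together when proteasome activity is limiting, under Rpn4 in yeast and under the cnc family in animals.

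The study examined a cluster of miRNA genes, miRNA 959-964, and used 8 Affymetrix arrays, 1 for each of 4 strains at each of 2 times of day. The knockout carried the genotype w1118 ; mir959-962-KO, and its control was w1118. In the overexpression strain, yw ; tim-gal4, UAS-mir-cluster/CyO, the cluster was driven by the promoter of the clock gene timeless, which acts in only part of the cells of a head; its control was yw ; tim-gal4/CyO, a strain that carries the same driver and balancer without the cluster transgene. All flies were kept for 3 days under 12 h of light and 12 h of darkness and collected at ZT16, in the dark, or at ZT4, in the light, ZT being hours after lights on. Heads were taken from frozen flies. The labels give neither the flies' age and sex nor how many heads went into an array, and each deletion or transgene is represented by a single strain.

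The values are log2 intensities, and their precision is limited by the number of arrays: no condition was repeated, so each error is the part of the time-of-day change that differed between strains, with 3 residual degrees of freedom. A probe set entered the tests if it reached log2 4 on at least 2 of the 8 arrays, which 8300 did. All 12 core and all 14 regulatory genes passed, and 0 of the 14 paralogs did. The labelled backgrounds were compared with 2 genes. y, the yellow gene, was at 2.33 on both overexpression arrays and at 2.34 on both tim-gal4 control arrays, against 2.35 and 3.39 in the knockout and 2.58 and 4.20 in w1118 (ZT16, ZT4), so only w1118 at ZT4 was above log2 4 and the knockout at ZT16 was at the level of the yw strains. Of the tim probe sets, 1 stood at 8.49 and 4.64 in the overexpression strain and 8.06 and 4.75 in the tim-gal4 control, against 3.22 and 2.33 in the knockout and 3.83 and 2.36 in w1118. The other tim probe set stood at 10.77 and 6.99 in the overexpression strain and 10.55 and 7.66 in the tim-gal4 control, against 10.82 and 5.82 in the knockout and 11.17 and 5.9955 in w1118, and at ZT16 it did not separate the pairs. These genes check neither the overexpression strain against its control nor the knockout against w1118. Head markers were present on all arrays, 14 or 15 of 15 genes reaching log2 4, with medians of 8.77 to 9.41. 2 of the ZT16 arrays, those of the knockout and of the tim-gal4 control, stood apart in markers of body tissues. On each of them 17 of 27 testis genes reached log2 4 (medians 5.66 and 5.51), as did 13 of 14 accessory gland genes (medians 9.35 and 8.23) and 10 and 9 of 19 gut enzyme genes (medians 4.14 and 3.86). On the other 6 arrays the medians of these 3 lists lay between 2.32 and 2.35, at the floor of the array, with 1 testis gene seen on each of the 6 and 1 accessory gland gene on knockout ZT4. No ovary or eggshell gene of 15 was seen on any array.

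**Figure D1:**
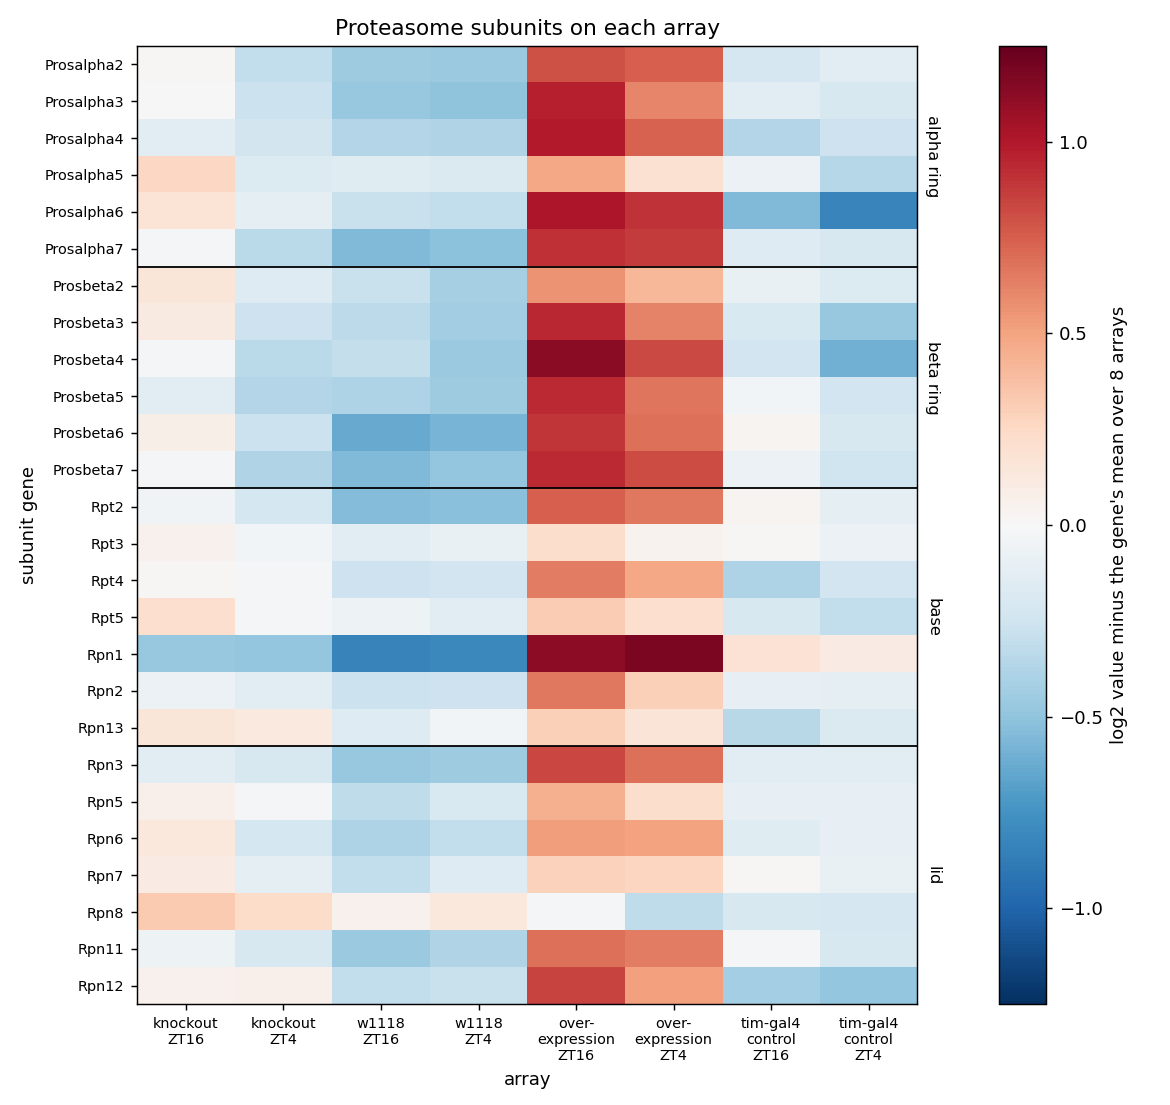
Heat map of the 26 core and regulatory subunits (down the page, grouped by ring, base and lid) on the 8 arrays (across), coloured by the log2 value minus that gene's mean over the 8 arrays. The 2 overexpression columns are red for 25 of the 26 genes, the exception being Rpn8, and the w1118 columns are mostly blue.

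The heads of the overexpression strain held more proteasome subunit mRNA than those of the tim-gal4 control, from both rings of the core particle and from most of the regulatory particle. In limma, which fits a linear model to every probe set and moderates its error with that of the others, 22 of the 26 subunits were called higher, at an adjusted p under 0.05, and 0 were called lower. Of all 8300 probe sets tested, 20.5% were called in the same comparison, 14.3% higher and 6.18% lower. All 12 core subunits and 10 of the 14 regulatory subunits were called. The median difference was 0.99 on the log2 scale for the core (1.99-fold) and 0.61 for the regulatory subunits (1.53-fold), against 0.10 over all probe sets tested. In whole heads, a difference in the number of cells that express a gene cannot be told apart from a difference in its RNA per cell.

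The largest difference in the core was that of Prosalpha6, an alpha ring subunit. Its log2 values were 9.19 and 9.08 in the overexpression strain at ZT16 and ZT4, against 7.63 and 7.35 in the tim-gal4 control. Both overexpression arrays stood above all other arrays, and the control arrays were the lowest of the 8. The fitted difference was 1.65 (SE 0.12, 3.13-fold, limma adjusted p = 0.00302), which placed Prosalpha6 at rank 65 of the 8300 probe sets, counted from the highest. Prosalpha4, in the same ring, had 8.70 and 8.45 in the overexpression strain, against 7.34 and 7.45 in the tim-gal4 control. Here the control lay close to the w1118 arrays, at 7.34 and 7.33. The difference was 1.18 (SE 0.12, 2.26-fold, adjusted p = 0.00739).

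In the beta ring, Prosbeta4 had log2 values of 9.33 and 9.02 in the overexpression strain at ZT16 and ZT4, against 7.96 and 7.60 in the tim-gal4 control. The overexpression arrays were again the highest of all, and the difference was 1.40 (SE 0.10, 2.63-fold, adjusted p = 0.00340). Prosbeta3, which like Prosbeta4 has no proteolytic site of its own, had 9.86 and 9.54 in the overexpression strain, against 8.72 and 8.44 in the tim-gal4 control. Its difference was 1.12 (SE 0.11, 2.17-fold, adjusted p = 0.00685), again with no overlap between the strains. The catalytic beta subunits measured were Prosbeta2, which cuts after basic residues, and Prosbeta5, which cuts after hydrophobic ones; they were named after their values were seen. Prosbeta5 had 10.03 and 9.77 in the overexpression strain, against 9.06 and 8.85 in the tim-gal4 control, while Prosbeta2 had 9.44 and 9.28 against 8.78 and 8.70. Both were called. The smallest difference in the core was that of Prosalpha5, at 8.90 and 8.61 in the overexpression strain, against 8.35 and 8.06 in the tim-gal4 control; it was called (adjusted p = 0.0401), yet its ZT4 value in the overexpression strain lay below the 8.68 of the knockout at ZT16.

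In the regulatory particle the differences were more uneven. Rpn12, a lid subunit that in yeast joins the lid last, had log2 values of 8.69 and 8.35 in the overexpression strain at ZT16 and ZT4, against 7.42 and 7.36 in the tim-gal4 control. The difference was 1.13 (SE 0.13, 2.19-fold, adjusted p = 0.00859), and the strains did not overlap. Rpn1, the large base subunit on which shuttle factors and the deubiquitinase Usp14 dock, had 8.26 and 8.32 in the overexpression strain, against 7.32 and 7.25 in the tim-gal4 control. For Rpn1 the control was itself above all 4 arrays of the other strain pair, the knockout at 6.67 and 6.66 and w1118 at 6.31 and 6.34. The difference between the overexpression strain and its control was 1.01 (SE 0.10, 2.01-fold, adjusted p = 0.00649).

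Rpn3, a lid scaffold, had 8.90 and 8.75 in the overexpression strain, against 7.93 and 7.94 in the tim-gal4 control, a difference of 0.89 (SE 0.10, 1.86-fold, adjusted p = 0.00873). Rpt4, an ATPase of the base, had 8.78 and 8.62 in the overexpression strain, against 7.75 and 7.90 in the tim-gal4 control, a difference of 0.87 (SE 0.12, 1.83-fold, adjusted p = 0.0110). In both genes the overexpression arrays were the highest of the 8. The other called regulatory subunits were Rpt2, Rpt5, Rpn2, Rpn6, Rpn11 and Rpn13.

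Of the 4 subunits that were not called, 3 belong to the lid. Rpn8, the partner of the deubiquitinase Rpn11, had 7.63 and 7.35 in the overexpression strain, against 7.47 and 7.45 in the tim-gal4 control, so that the strains overlapped, and the difference was 0.03 (limma adjusted p = 0.872). The highest Rpn8 values of the series were in the knockout, at 7.99 and 7.90. Rpn11, which with Rpn8 forms the deubiquitinating unit of the lid, was called, with 8.99 and 8.94 in the overexpression strain, against 8.27 and 8.10 in the tim-gal4 control. Rpt3 had 8.12 and 7.94 in the overexpression strain, against 7.91 and 7.82 in the tim-gal4 control, a difference of 0.16 (adjusted p = 0.322). Rpn7 differed by 0.31 (adjusted p = 0.140) and Rpn5 by 0.43 (adjusted p = 0.0646). These p values do not show that the 4 genes were equal in the strains.

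By position in the particle, the median log2 difference was 1.02 in the alpha ring and 0.98 in the beta ring, with 6 of 6 subunits called in each. It was 0.59 in the base, with 6 of 7 called, and 0.64 in the lid, with 4 of 7 called. At least 2-fold differences were found in 6 core and 2 regulatory subunits, and in 3.84% of all probe sets tested. Relative to each gene's mean over the 8 arrays, the core median exceeded the regulatory median by 0.35 and 0.32 on the overexpression arrays (ZT16, ZT4). On the other 6 arrays it lay 0.03 to 0.21 below it. That is no separate observation, because each gene was set against its mean over the same 8 arrays. The difference between the core and regulatory subunits was not tested.

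**Figure D2:**
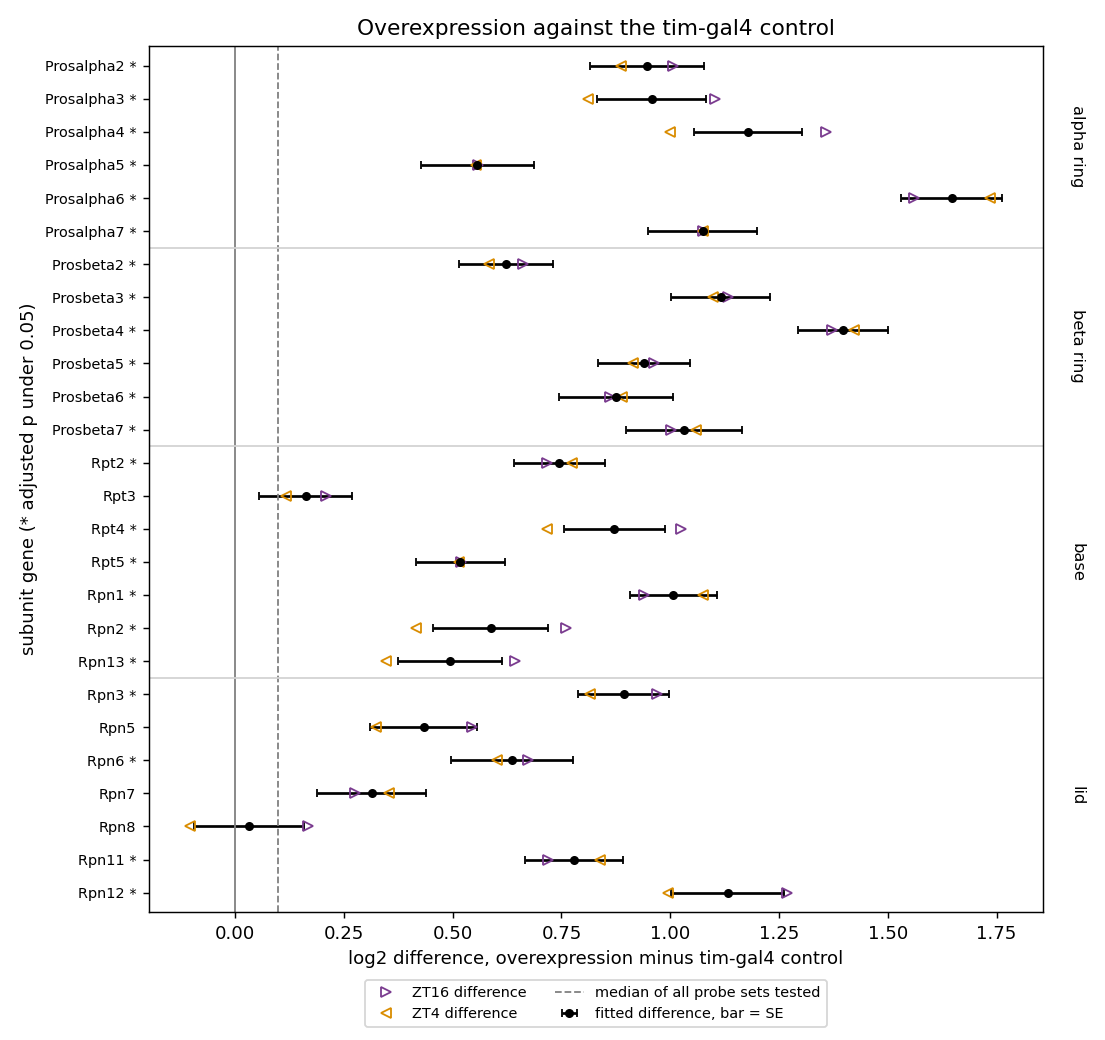
Log2 difference between the overexpression strain and the tim-gal4 control for each of the 26 subunits: black points are limma's fitted differences with their SE, triangles the differences at ZT16 and at ZT4, and the dashed line the median of all 8300 probe sets. All 26 fitted differences are above 0, from 0.03 in Rpn8 to 1.65 in Prosalpha6, and asterisks mark the 22 called genes.

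The overexpression arrays stood above the other 6 arrays, knockout and w1118 included, for 11 of 12 core subunits (not Prosalpha5) and 11 of 14 regulatory subunits (not Rpn8, Rpt3 or Rpt5), an arrangement found in 22.0% of all probe sets tested. They stood above both tim-gal4 control arrays for 12 core and 13 regulatory subunits, as in 38.1% of all. Within ZT4, where neither array of this strain pair showed the body-tissue markers, the median difference was 0.96 in the core, 0.56 in the regulatory subunits and 0.02 over all probe sets. Within ZT16, where the control array carried those markers, it was 1.04, 0.69 and 0.19. The number of calls rests on few arrays: without overexpression ZT16, overexpression ZT4, tim-gal4 control ZT16 or tim-gal4 control ZT4 in turn, 2, 4, 3 and 5 subunits were called, where 1.58%, 3.2%, 2.64% and 3.77% of all probe sets were. Without both arrays that carried body-tissue markers 0 were called; 20 subunits then had an unadjusted p under 0.05, as did 28.4% of all probe sets, with 1 residual degree of freedom. That fit called no probe set of any kind, so its count of 0 says little about the subunits in particular. The core median over these alternatives with arrays left out stayed between 0.99 and 1.04. Prosalpha6 and Prosbeta4 were called whichever single array was left out.

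Genes that work with the proteasome were called about as often as probe sets in general. Of 26 listed partners (assembly factors, activators, deubiquitinases, shuttle factors, ubiquitin genes and regulators), 21 were measured and all passed the filter. In the overexpression strain 4 were higher than in the tim-gal4 control, 1 was lower, and 16 were not called, with a median difference of 0.03; these counts are near the 14.3% higher and 6.18% lower of all probe sets. Usp14, the deubiquitinase that binds Rpn1, had 9.48 and 9.26 in the overexpression strain, against 7.90 and 7.91 in the tim-gal4 control, a difference of 1.47 (SE 0.13, limma adjusted p = 0.00512). Sem1, a small lid component, differed by 0.74 (adjusted p = 0.0214), Rad23, a shuttle factor that carries ubiquitinated substrates, by 0.55 (adjusted p = 0.0323), and Txl, a thioredoxin-like protein of the regulatory particle, by 0.54 (adjusted p = 0.0456). rngo, another shuttle factor, fell by 0.80 (adjusted p = 0.0286). Neither Pomp, the chaperone that matures the core particle (0.03), nor cnc, the transcription factor of the family noted above (-0.12), was called.

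In the knockout, proteasome subunit mRNA was slightly above w1118 for every subunit, and for none at an adjusted p under 0.05. In limma 0 of the 26 subunits were called against w1118, where 1.58% of all probe sets were called (0.759% higher and 0.819% lower), and 11 (6 core and 5 regulatory) had an unadjusted p under 0.05, as did 14.1% of all probe sets. All 26 fitted differences were positive, while 32.9% of all probe sets tested had a positive one. The median difference was 0.31 in the core (1.24-fold) and 0.26 in the regulatory subunits (1.20-fold), against -0.10 over all probe sets. The knockout arrays stood above both w1118 arrays for 10 of 12 core subunits (not Prosalpha5 or Prosbeta4) and for 14 of 14 regulatory subunits, against 11.7% of all probe sets.

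Prosbeta6, a beta ring subunit, had the largest difference. Its log2 values were 8.74 and 8.40 in the knockout at ZT16 and ZT4, against 8.03 and 8.09 in w1118, and the difference was 0.51 (SE 0.13, limma adjusted p = 0.204). Prosalpha7, an alpha ring subunit, had 8.25 and 7.94 in the knockout, against 7.72 and 7.76 in w1118, a difference of 0.35 (SE 0.12, adjusted p = 0.318). In both genes the knockout ZT16 array stood well above the knockout ZT4 array.

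Rpt2, an ATPase whose tail in yeast helps to open the gate, had 7.64 and 7.47 in the knockout, against 7.15 and 7.16 in w1118, a difference of 0.40 (SE 0.10, adjusted p = 0.206). Rpn12 had 7.89 and 7.90 in the knockout, against 7.53 and 7.56 in w1118, a difference of 0.35 (SE 0.13, adjusted p = 0.330). In neither gene did the strains overlap.

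The differences were larger at ZT16, the time at which the knockout array carried testis, accessory gland and gut genes. Within ZT16 the median was 0.45 in the core and 0.35 in the regulatory subunits, against -0.18 over all probe sets. Within ZT4, with no such markers beyond the 1 testis and 1 accessory gland gene noted above, it was 0.17 in both classes, against -0.01 over all probe sets, and all 26 differences were positive at each time. The part of the body-tissue RNA in the ZT16 values was not tested. Of the 21 partners 0 were called in the knockout; those with the largest differences were Npl4, a cofactor of the TER94 segregase, at 0.80 (adjusted p = 0.547), Usp14 at -0.42 (adjusted p = 0.276) and TER94 at 0.30 (adjusted p = 0.325). Npl4 stood at 8.24 on the knockout ZT16 array and at 9.46 on the tim-gal4 control ZT16 array, the arrays with body-tissue markers.

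**Figure D3:**
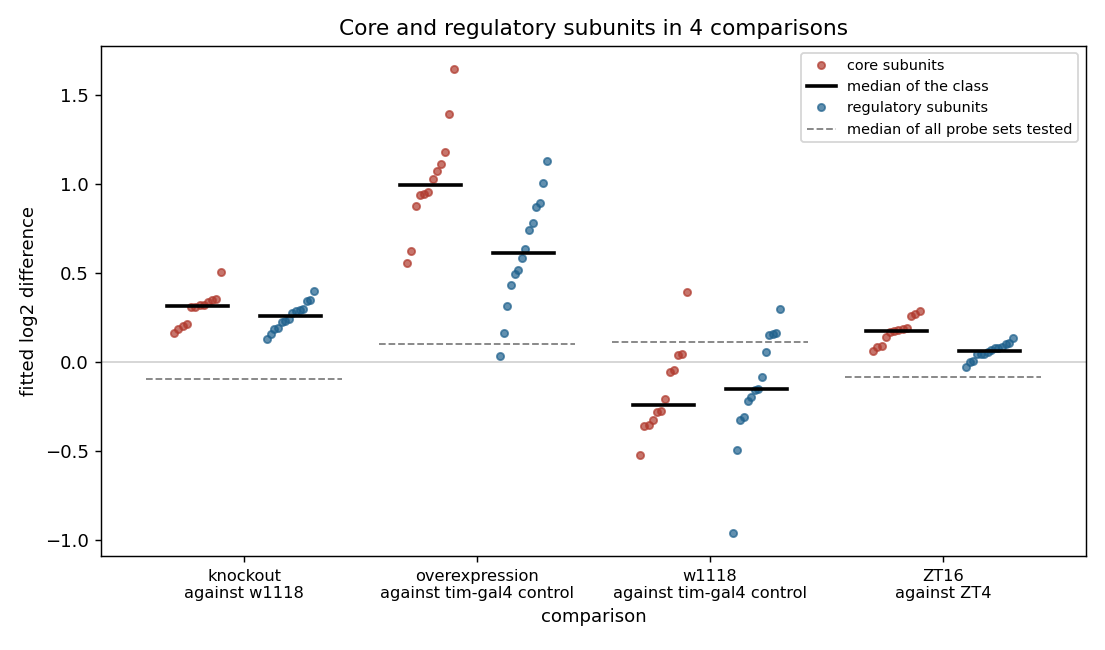
Fitted log2 differences of the 12 core (red) and 14 regulatory (blue) subunits in 4 comparisons, with the class medians as bars and the median of all 8300 probe sets as dashed lines. The overexpression comparison has medians of 0.99 and 0.61, the knockout comparison 0.31 and 0.26, and in the w1118 comparison both medians are below 0.

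Between the control strains few subunits were called. Against the tim-gal4 control, 3 of 26 subunits were lower in w1118 and 0 were higher, where 30.9% of all probe sets were called, 11.0% lower and 19.9% higher; the count of lower subunits is near that background. The median difference was -0.24 in the core and -0.15 in the regulatory subunits, against 0.11 over all probe sets. Centring each array on its own median brought that last value to 0.01, with core and regulatory medians of -0.35 and -0.26. Within ZT16, where the tim-gal4 control array carried body-tissue markers, the uncentred medians were -0.21 (core), -0.19 (regulatory) and 0.20 (all probe sets). Within ZT4 they were -0.22, -0.08 and 0.03. The part of the body-tissue RNA in these values was not tested. The largest difference was that of Rpn1, with log2 values of 6.31 and 6.34 in w1118 at ZT16 and ZT4, against 7.32 and 7.25 in the tim-gal4 control. The difference was -0.96 (SE 0.10, limma adjusted p = 0.00412) and was called whichever single array was left out.

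Prosbeta6 had 8.03 and 8.09 in w1118, against 8.70 and 8.46 in the tim-gal4 control, a difference of -0.52 (SE 0.13, adjusted p = 0.0371). Rpt2 had 7.15 and 7.16 in w1118, against 7.72 and 7.57 in the tim-gal4 control, a difference of -0.49 (SE 0.10, adjusted p = 0.0239). In all 3 genes both w1118 arrays were below both control arrays, an arrangement shared by 7 of 12 core and 9 of 14 regulatory subunits and by 23.0% of all probe sets. Without w1118 ZT4, Rpn1 and Prosbeta6 remained called; without any other single array, Rpn1 alone did.

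The order was not the same for every subunit: 8 of the 26 fitted differences were positive, where 59.3% of all probe sets had a positive one. The difference of Prosalpha6 was 0.40 (limma adjusted p = 0.0550) and that of Rpn8 was 0.30. Of the partners, cnc was higher in w1118 by 0.72 (adjusted p = 0.0127) and CG8858, the fly gene of the proteasome adaptor Ecm29, by 0.69 (adjusted p = 0.0270). The polyubiquitin gene Ubi-p5E fell by 0.80 (adjusted p = 0.00786), maf-S, the partner of cnc on DNA, by 0.51 (adjusted p = 0.0343) and TER94 by 0.46 (adjusted p = 0.0310). The comparisons of the overexpression strain and of w1118 share the tim-gal4 control arrays. Set against w1118 instead, a comparison added after the values were seen, the overexpression strain had 23 subunits called higher and 0 lower, where 19.5% of all probe sets were higher, with medians of 1.24 in the core and 0.78 in the regulatory subunits. Set against the knockout it had 19 called higher, where 21.8% of all probe sets were, and 1 called lower, Rpn8, with a core median of 0.93.

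Between the times of day the subunits differed little. At ZT16 against ZT4, 0 of the 26 were called in limma, where 0.373% of all probe sets were called (0.157% higher and 0.217% lower), and 4 core and 0 regulatory subunits had an unadjusted p under 0.05, a count near the 16.5% of all probe sets that did. The median difference was 0.18 in the core, with 12 of 12 positive, and 0.06 in the regulatory subunits, with 13 of 14 positive. Over all probe sets the median was -0.08, with 31.5% positive. For no subunit did every ZT16 array stand above every ZT4 array, as it did for 0.783% of all probe sets. This count sets strains against each other and says little about time. It could not be met by the 11 core and 11 regulatory subunits whose overexpression arrays both stood above the other 6.

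Prosbeta4 had the largest difference, at 8.18 in the knockout, 7.90 in w1118, 9.33 in the overexpression strain and 7.96 in the tim-gal4 control at ZT16, against 7.86, 7.74, 9.02 and 7.60 in the same strains at ZT4. It was higher at ZT16 in 4 of 4 strains, by 0.29 (SE 0.07, limma adjusted p = 0.190). Prosbeta3 was likewise higher in all 4 strains, by 0.27 (SE 0.08, adjusted p = 0.217). The largest regulatory differences were smaller, 0.13 in Rpt5 (SE 0.07, adjusted p = 0.343) and 0.11 in Rpn2, a base scaffold (SE 0.09, adjusted p = 0.522).

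By strain, the ZT16 minus ZT4 median of the core was 0.31 in the knockout, 0.03 in w1118, 0.23 in the overexpression strain and 0.19 in the tim-gal4 control. That of the regulatory subunits was 0.08, -0.04, 0.14 and 0.04 in the same order. In the knockout and the tim-gal4 control the ZT16 array is the one with body-tissue markers, whose part in these values was not tested. Neither w1118 nor the overexpression strain had such an array. The time-of-day change was also tested directly in limma, with 2 residual degrees of freedom. In the knockout it was called different from that of the other strains for 0 of 26 subunits, and likewise in the overexpression strain. In either test 0.0% of all 8300 probe sets were called, so the tests do not show that the changes were equal. An unadjusted p under 0.05 was found for 0 of the 26 subunits, where 2.04% of all probe sets had one in the knockout test and 2.6% in the overexpression test. Of the partners 0 were called between ZT16 and ZT4, the largest differences being 0.89 in Npl4 (adjusted p = 0.317), 0.27 in Uch-L5, a deubiquitinase of the regulatory particle (adjusted p = 0.273), and 0.22 in rngo (adjusted p = 0.332).

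The 14 paralogs are mostly known in Drosophila as testis-expressed versions of the subunits. None reached log2 4 on any array, so their values are near the floor of 2.32 and are not quantitative. Prosbeta5R1 had the highest value, 3.57 on the knockout ZT16 array, with 2.55 on the tim-gal4 control ZT16 array and 2.32 on the other 6. Prosalpha6T had 3.09 and 2.66 on the same arrays and 2.32 on the other 6. Both arrays are those with testis markers.

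Rpn12R (2.97 on knockout ZT16 and 2.34 on tim-gal4 control ZT16), Prosbeta2R2 (2.67 and 2.53), Rpt3R (2.51 and 2.39), Prosbeta4R1 (2.41 and 2.37) and Rpt4R (2.34 and 2.33) were likewise below log2 4 there, and such small differences at the floor are not read as an order. Rpn13R lay between 2.88 and 2.90 on 7 arrays and at 3.16 on w1118 ZT4. Prosbeta4R2, Prosalpha3T, Prosalpha4T1, Prosalpha4T2, Prosbeta2R1 and Prosbeta5R2 stayed between 2.32 and 2.36 on all arrays. No paralog was measurable on these arrays, whereas 364 probe sets, 1.94% of the 18769 that are not controls, reached log2 4 on both arrays with testis markers and on no other.

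**Figure D4:**
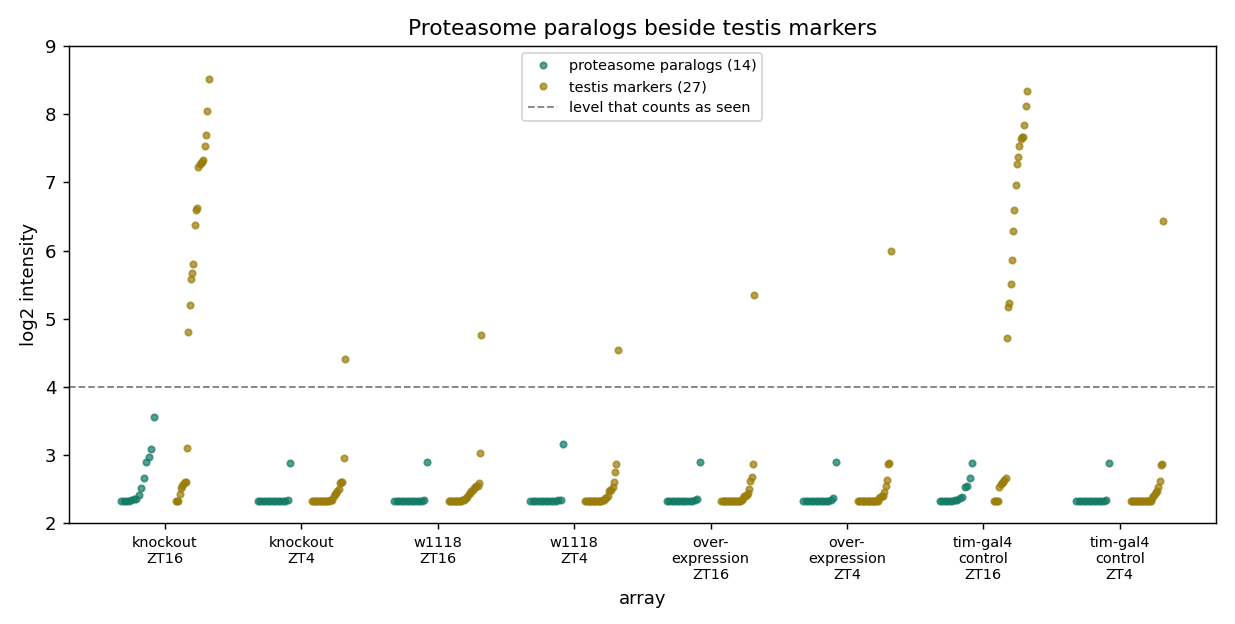
Log2 intensity of the 14 proteasome paralogs (green) and the 27 testis markers (ochre) on each of the 8 arrays, each dot a gene, with the level of 4 that counts as seen as a dashed line. All paralogs lie below the line, the highest at 3.57 on knockout ZT16, while 17 testis markers lie above it on knockout ZT16 and on tim-gal4 control ZT16.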

How the data were processed

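Total RNA of fly heads was extracted with TRIzol, labelled with an IVT Express kit and hybridised to Affymetrix Drosophila Genome 2.0 arrays, per the labels' protocols. The deposited values are log2 intensities, which the authors made with GCRMA, per the submitters' processing notes; its version and settings are not given in the sources used here. Of 18952 probe sets, 183 are controls; of the others, 13647 have 1 gene symbol in the platform annotation, 402 have several and 4720 have none. Symbols were updated through RefSeq's gene table (Release 6 plus ISO1 MT). Probe sets of Prosbeta5, Prosbeta7, Rpn6, Rpn13 and Rpn12R are of a type that can also match related transcripts.

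The deposited log2 values were fitted with limma 3.58.1 in R 4.3.3, with strain and time as terms over all 8 arrays, on probe sets at log2 4 or more on at least 2 arrays, with two-sided tests and Benjamini-Hochberg adjustment over all 8300; called means an adjusted p under 0.05. A further term tested whether 1 strain's time change differed (2 residual degrees of freedom). Base and lid positions were assigned after the values were seen. Chosen for description were, in each comparison, up to 4 called members per class with the largest differences (2 where none was called), all paralogs, and called partners or the 3 with the largest differences. Array values are given for only some of them. Members and lists were chosen with earlier results of these data known. Alternatives were filters, scaling, moderation, the arrays fitted and arrays left out. No conditions were replicated, and the p-values cover only the spread between these arrays.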

Additional observations from a re-analysis of the deposited data

How the results depend on the processing

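The number of subunits called between the overexpression strain and the tim-gal4 control, 22, was 0 without the 2 ZT16 arrays that carried body-tissue markers and 0 with only the 4 arrays of the comparison (20 and 22 at an unadjusted p under 0.05, against 28.4% and 26.2% of all probe sets), fits with 1 residual degree of freedom; leaving out 1 array gave 2 to 19, and the other alternatives 15 to 23. With only the 4 arrays, 14 of all 8300 probe sets were called, and without the 2 ZT16 arrays no probe set was. A count of 0 in either fit therefore says little about the subunits in particular. The core median of 0.99 was 0.92 with arrays centred on their medians. It was 1.24 against w1118 and 0.93 against the knockout, both added after seeing the data, and 0.99 to 1.04 with 1 array left out. The regulatory median of 0.61 was 0.78 against w1118 and 0.55 to 0.68 with 1 array left out. The 3 calls between w1118 and the tim-gal4 control became 5 under a stricter filter, under centring and under trended moderation. Those fits called 1906 of 5220, 2424 of 8300 and 3047 of 8300 probe sets, in the same order. With only the 4 arrays of the comparison, and 1 residual degree of freedom, 0 subunits and 83 of 8300 probe sets were called. The medians were -0.35 (core) and -0.26 (regulatory) under centring, and -0.27 to -0.16 and -0.25 to -0.051 with 1 array left out. The cause of these changes was not tested, and where arrays were left out the fit also rested on fewer arrays. No subunit was called between the knockout and w1118 or between ZT16 and ZT4 under the alternatives that kept all 8 arrays. In the knockout comparison these called from 30 of 18769 probe sets (no filter) to 246 of 8300 (trended moderation). In the time comparison they called from 0 of 18769 to 234 of 8300 under the same settings. With so few calls over all probe sets, these counts say little about the subunits. With 1 array left out the medians were 0.20 to 0.40 (core) and 0.18 to 0.35 (regulatory) in the knockout comparison. In the time comparison they were 0.14 to 0.23 and 0.02 to 0.12. At a level of log2 3 in place of 4, 2 paralogs, Prosbeta5R1 and Prosalpha6T, were seen on knockout ZT16 and on no other array, in place of 0. At that level 0 paralogs were seen on both arrays with testis markers and on no other. The share of all probe sets at log2 3 was not counted. For the named subunits no alternative turned a direction. Of their values, 283 kept their side of the threshold and 56 lost a call. The 283 include the named subunits of the knockout and time comparisons, which had no call to lose. They also include a median over each gene's probe sets, which could change nothing because each subunit has 1 probe set. Strain and time are both terms of the fit, so times are compared within strains and strains within times. With no strain block, 0 subunits were called between ZT16 and ZT4, where 7 of 8300 probe sets were, with the same medians.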

Other observations

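Other large protein complexes were compared between the overexpression strain and the tim-gal4 control; they were chosen after the proteasome values were seen and carry no test of their own. Of the 8 genes of the CCT chaperonin, which folds actin and tubulin, 2 were called higher in limma, CCT6 by 0.87 (adjusted p = 0.0191) and CCT2 by 0.77 (adjusted p = 0.0491), and the median difference was 0.60. Of the 7 COP9 signalosome genes past the filter, whose subunits are related to those of the proteasome lid, 1 was called, CSN5 by 0.59 (adjusted p = 0.0279), and the median was 0.17. Of the 13 genes past the filter of eIF3, a translation initiation factor that is also related to the lid, 2 were called, eIF3k by 0.99 (adjusted p = 0.0104) and eIF3a by 0.56 (adjusted p = 0.0258), and the median was 0.18. Over all probe sets tested 14.3% were called higher and the median was 0.10; the counts in COP9 and eIF3 are near that share.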
